A study of Caenorhabditis elegans with 60 samples.

Results

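CSR-1B, the shorter isoform of the Caenorhabditis elegans Argonaute protein CSR-1, was immunoprecipitated from adults and from animals of the fourth larval stage (L4), and the small RNAs it carried were sequenced together with those of each input. The quantity described for every gene is the enrichment of its small RNA reads in the CSR-1B immunoprecipitate (IP) over the input in adults, less the same enrichment at L4. It rests on 8 of the 60 samples of the series, 2 libraries in each of 4 groups, and 15085 of the 31106 genes in the count files passed the filter on low counts. The larger study asks which transcripts each CSR-1 isoform engages in a germ line that makes sperm at L4 and oocytes in adults.

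The 4 groups were the adult IP, the adult input, the L4 IP and the L4 input of one edited line grown at 20 °C, which carried the alleles csr-1a(cmp135) and, on the same chromosome, csr-1b(cmp167[2xFLAG::csr-1]). Adults were collected 68 h and L4 animals 48 h after hatching, as extracts of whole animals pulled down with anti-FLAG. Every library of these groups therefore came from animals without CSR-1A and with a FLAG tag on CSR-1B, which counts per gene cannot check. A second line, csr-1b(cmp166[2xFLAG::csr-1]), carried the tag on both isoforms and kept CSR-1A. Its 8 libraries, called CSR-1A+B, gave a second measure of the stage difference in other animals. The anti-FLAG IP of untagged animals used here was made at L4, and background binding in adults was not analysed here.

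Argonaute proteins hold a short guide RNA and bind transcripts complementary to it. In the worm germ line, RNA-dependent RNA polymerases copy transcripts into antisense small RNAs, which CSR-1 and the WAGO Argonautes take up. CSR-1 is known for carrying small RNAs against genes that the germ line expresses, and WAGO-1 for carrying those against silenced genes and repeats. The X chromosome is largely silent in mitotic and early meiotic germ cells, and X-linked genes are transcribed mainly late in oogenesis.

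The edits that define the line are shown because they decide which protein the antibody recovers. Both lie in csr-1 at chrIV:7957267-7962157 on the plus strand of WBcel235. The csr-1a start codon is at chrIV:7957580-7957582 and the csr-1b start codon at chrIV:7958613-7958615, inside coding sequence that the isoforms share. In the repair oligo of the tag, capitals mark the 48 inserted bases, which follow the csr-1b start codon directly, and 4 single substitutions. In the repair template of csr-1a, capitals mark the 8 bases that replace 20 reference bases at chrIV:7957580-7957599, the csr-1a start codon included. Each 19-base guide matched the genome once, the tag guide on the minus strand at chrIV:7958634-7958652 and the csr-1a guide on the plus strand at chrIV:7957584-7957602.
tag guide: agatgttcagggcaagtct
tag repair oligo: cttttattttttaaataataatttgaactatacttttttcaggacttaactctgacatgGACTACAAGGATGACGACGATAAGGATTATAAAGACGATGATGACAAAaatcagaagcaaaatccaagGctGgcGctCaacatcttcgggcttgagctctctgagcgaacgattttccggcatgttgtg
csr-1a guide: agtcggataatgtcggtcg
csr-1a repair template: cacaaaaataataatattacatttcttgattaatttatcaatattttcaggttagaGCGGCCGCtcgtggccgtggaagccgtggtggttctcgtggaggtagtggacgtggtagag

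The libraries held between 570862 and 17342341 counts on genes. The L4 IP replicate 1 was the shallow one at 570862, and 3308 of the tested genes had no count in it, against 19 to 342 in the other libraries of the line. In that library 3 counts corresponded to 3.89 reads per 1000000 reads mapped to the genome (RPM), and in the other libraries to 0.130 to 0.322 RPM. The labelled stages were reflected in the inputs. Reads against vit-6, a yolk protein gene of the adult intestine, stood at 639 and 750 RPM in the adult inputs, against 27.4 and 16.2 RPM in the L4 inputs. In whole animals, fewer cells of a type and less RNA per cell cannot be told apart. The samples of a group are separate by their labels, and p-values measure the spread between those pairs of libraries, which may be technical.

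The scale of the comparison depended on the normalization, and the genes CSR-1B bound filled most of each IP. The 4207 genes called as CSR-1B targets in adults, by the edgeR criteria given further on, took 73.2% and 71.4% of the counts in the adult IPs and 18.8% and 18.3% in the adult inputs. They took 63.8% and 71.0% in the L4 IPs and 6.98% and 7.56% in the L4 inputs. The ratio of the summed shares, IP over input, was 3.90 and 3.91 in adults, against 9.15 and 9.39 at L4. The median stage difference over all tested genes was 0.22 on the log2 scale with TMM factors, 0.02 with DESeq2 size factors and -0.57 with library sizes alone. Log2 differences below are on the TMM scale unless another is named. For some groups the median is also given less that of all genes. The other group medians of the CSR-1B line are to be read beside the 0.22 of all genes. RPM values are given per library beside them.

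**Figure D1:**
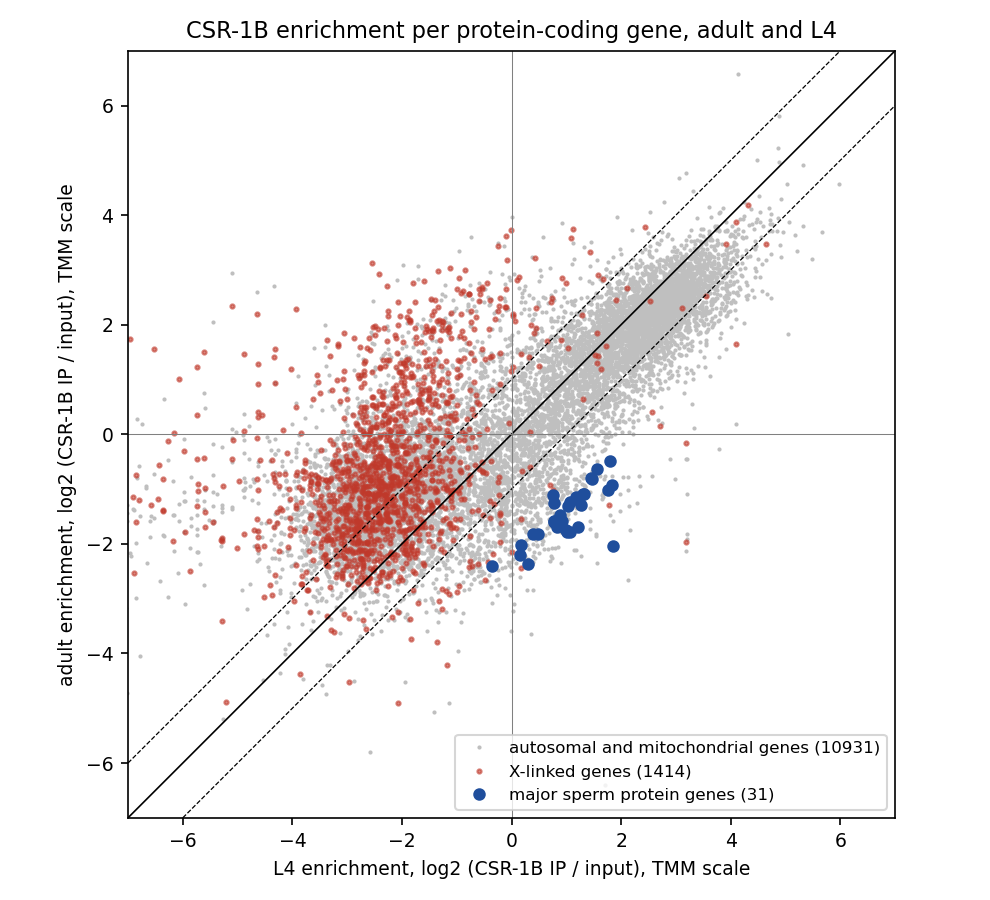
Enrichment of each tested protein-coding gene in the CSR-1B IP over input, log2 on the TMM scale, in adults (vertical axis) and at L4 (horizontal axis). The solid line marks equal enrichment and the dashed lines a 2-fold difference; 47 genes lie outside the axes. X-linked genes (red) lie mostly above the line, and the 31 major sperm protein genes (blue) lie below it.

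Genes with higher enrichment in adults outnumbered those with lower enrichment on the TMM scale. A call needed a 2-fold difference and an adjusted p no higher than 0.05 in edgeR's quasi-likelihood test. By it 2177 genes (14.4% of those tested) were higher in adults and 808 (5.36%) were lower. DESeq2 size factors gave 2361 and 2107, DESeq2 1474 and 1568, and library sizes alone 1134 and 4656, so the direction of the majority turned with the scaling. No gene called on the TMM scale was called the other way under these alternatives. The same call under all of them was made for 875 genes (5.80%) higher and 709 genes (4.70%) lower in adults. Without the shallow L4 IP replicate 1 the counts were 2801 and 2182, and 2144 and 805 of the original calls were among them.

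Most of the genes called higher in adults were not enriched in the adult IP. In adults 4920 of the tested genes (32.6%) were enriched in the IP, and at L4 4719 (31.3%) were. Of the 2177 genes higher in adults, 245 were enriched in the adult IP without a call at L4, 199 were enriched in the adult IP and depleted at L4, and 24 were enriched at both stages. Another 1060 were depleted at L4 and without a call in adults, and 615 were depleted at both stages. Of the 808 genes lower in adults, 192 were enriched at both stages, 201 were enriched at L4 with no call in adults, and 50 were enriched at L4 and depleted in adults. The largest class, 295 genes, was depleted in adults with no call at L4. Another 30 were depleted at both stages, and 40 had no call at either stage.

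X-linked genes made up a large group among those higher in adults. The grouping by chromosome, and the splits of X below, were chosen after values had been seen. Of 2667 X-linked protein-coding genes 1414 were tested; 517 (36.6%) were higher and 9 lower in adults. On the autosomes 1264 of 10919 (11.6%) were higher and 696 (6.37%) lower. The median stage difference was 1.54 on X, 1.32 above the median of all genes, against 0.06 on the autosomes. The same call under all scalings and tools was made for 296 X-linked genes higher and 8 lower. The distance between the X and autosomal medians was 1.48 with TMM factors, 1.57 with DESeq2 size factors, 1.59 with library sizes alone and 1.44 with DESeq2. It was 1.63 without the shallow L4 IP, where 642 X-linked genes were higher, and 329 were higher without the adult IP replicate 1.

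**Figure D2:**
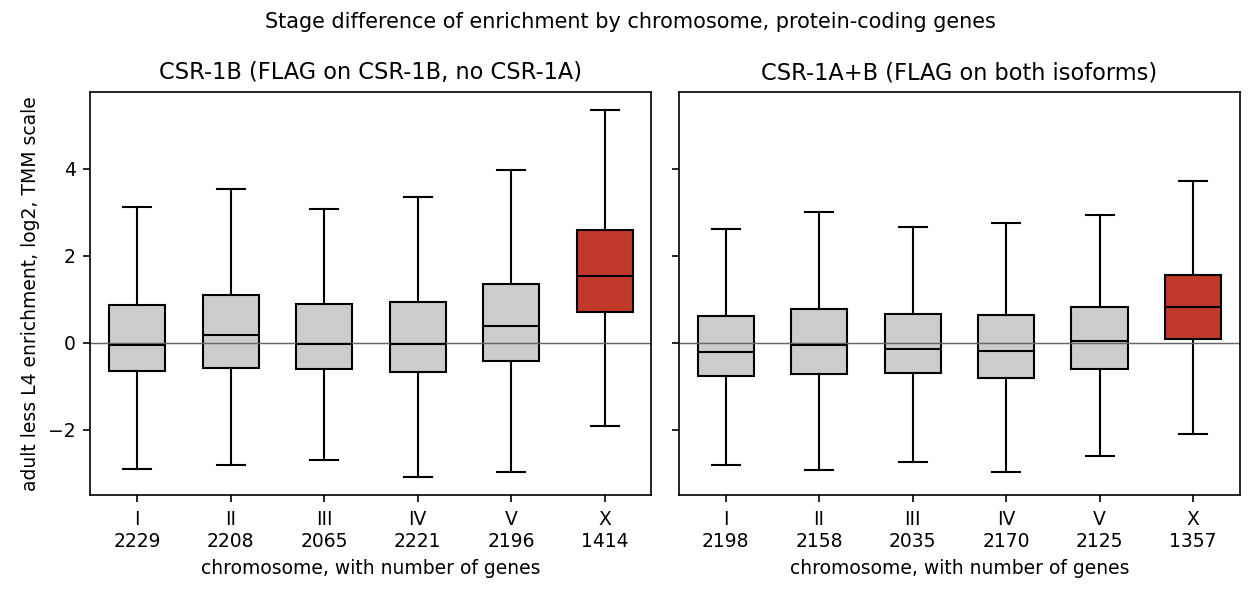
Adult less L4 enrichment of protein-coding genes by chromosome, log2 on the TMM scale, in the CSR-1B line (left) and the CSR-1A+B line (right); boxes span the middle quartiles with the median, whiskers reach 1.5 times that span and farther genes are not drawn. The X box has a median of 1.54 in CSR-1B and 0.83 in CSR-1A+B, above every autosome in each line.

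Few X-linked genes were enriched at L4. In adults 222 of the 1414 (15.7%) were enriched in the CSR-1B IP, against 19 (1.34%) at L4, while on the autosomes 4355 (39.9%) were enriched in adults and 4416 (40.4%) at L4. The X genes moved through the IP more than through the input: their median log2 change, adults less L4 on the TMM scale, was 1.57 in the IP and -0.24 in the input. Their summed share differed little: in the IP it was 0.443 and 0.504 times that in the input in adults. At L4 it was 0.426 and 0.358 times. Many were low: those called higher had a median of 1.62 RPM in the L4 IPs, where 3 counts in the shallow library were 3.89 RPM. The difference was spread along the chromosome, with 184 of 486, 150 of 454 and 183 of 474 tested genes higher in 3 segments of equal length. It was present among the X-linked genes that were WAGO-1 targets at L4 (203 of 353 higher, 57.5%) and among those that were not (314 of 1061, 29.6%). On the autosomes 435 of 1538 WAGO-1 targets (28.3%) and 829 of 9381 other genes (8.84%) were higher. In CSR-1A+B the shares of WAGO-1 targets and of other genes that were higher were 54.3% and 16.6% on X. On the autosomes they were 29.4% and 7.0%. All X-linked genes together still took a small share of protein-coding reads in the IPs, 2.73% and 2.86% in adults against 2.14% and 1.78% at L4, and 8.33% and 8.25% of those in the adult inputs against 7.56% and 7.37% in the L4 inputs.

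Of the 10 protein-coding genes with the largest called differences and at least 10 RPM in an IP, 8 lay on X. The first was vps-52, which encodes a subunit of the GARP complex that tethers endosome-derived vesicles at the Golgi (chrX:7565323-7568152). Its small RNAs stood at 51.6 and 50.8 RPM in the adult IPs and 6.08 and 5.62 RPM in the adult inputs. At L4 they stood at 5.19 and 2.04 RPM in the IPs and 5.78 and 5.77 RPM in the inputs. The adult IPs were thus well above every other library, while both L4 IPs lay at or under their inputs. The ratio of mean IP to mean input was 8.75 in adults and 0.626 at L4, 14-fold apart in RPM, and the log2 difference on the TMM scale was 5.34 ± 0.47 (SE, adjusted p = 3.06e-06).

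The other 9 genes had log2 differences of 4.29 to 4.57. lgl-1, the worm homologue of the polarity gene lethal giant larvae, had 35 and 29.9 RPM in the adult IPs and 4.24 and 4.11 RPM in their inputs, against 2.60 and 0.967 RPM in the L4 IPs and 1.86 and 1.71 RPM in the L4 inputs. Its log2 difference was 4.57 ± 0.53 (SE, adjusted p = 2.62e-05). mbk-1, a kinase of the DYRK family, had 17.2 and 19 RPM in the adult IPs, against 1.30 and 1.61 RPM in the L4 IPs, with inputs near 4 RPM at both stages. aak-2, a catalytic subunit of the AMP-activated kinase, had 17.9 and 18.6 RPM in the adult IPs, against a count of 0 and 1.61 RPM in the L4 IPs. For gck-4, a kinase of the germinal centre family, the adult IPs held 32.8 and 31.3 RPM, and the L4 IPs a count of 0 and 1.29 RPM. The remaining X-linked genes of the 10 were usp-33, R09A8.9 and tag-52, with log2 differences of 4.51, 4.41 and 4.33. The genes on other chromosomes were Y42A5A.5 on V and aptf-4 on II, which encodes an AP-2 transcription factor, with 4.34 and 4.31.

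**Figure D3:**
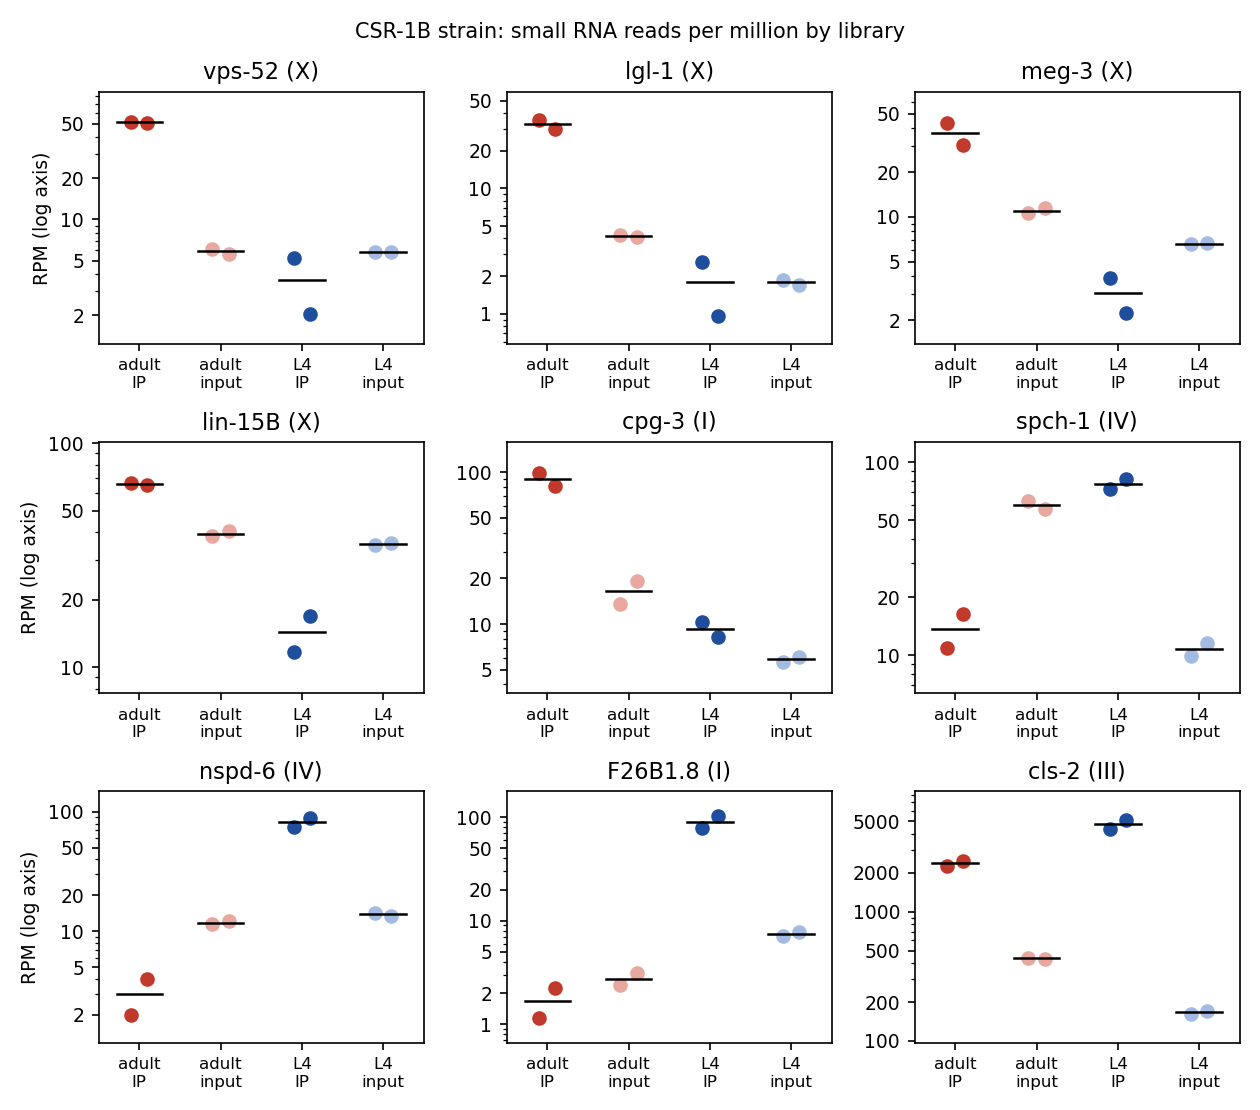
Small RNA reads in RPM (log axis, one scale per gene) in each CSR-1B library for 9 named genes, with the chromosome in brackets; points are libraries and bars are means of 2. The X-linked genes and cpg-3 are highest in the adult IPs, spch-1, nspd-6, F26B1.8 and cls-2 in the L4 IPs, and for cls-2 the adult IPs also exceed their inputs.

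The MEG genes of the germ plasm were X-linked members of the same pattern. MEG proteins are intrinsically disordered, and MEG-3 and MEG-4 help assemble P granules in embryos. meg-3 had 43.1 and 30.6 RPM in the adult IPs over inputs of 10.6 and 11.5 RPM, against 3.90 and 2.26 RPM in the L4 IPs over inputs of 6.6 and 6.63 RPM. Its log2 difference was 4.13 ± 0.48 (SE, adjusted p = 2.62e-05). meg-2 had 17.8 and 17.4 RPM in the adult IPs, against a count of 0 and 1.4 RPM in the L4 IPs (log2 difference 3.02, adjusted p = 0.00305). meg-4 was near its input in adults, at 23.9 and 27 RPM over 23.2 and 19.5 RPM, and below it at L4, at 16.9 and 11.1 RPM over 22.4 and 21.3 RPM (log2 difference 2.12). meg-1 was called on the TMM scale (1.86, adjusted p = 0.0399) but not with library sizes alone (1.15), with DESeq2 (1.72) or with same-numbered IP and input paired as a replicate block (1.92, adjusted p = 0.0729).

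Of the lists of CSR-1 pathway and of WAGO and mutator genes, lin-15B and nrde-3 were higher and X-linked. lin-15B, a THAP-domain chromatin repressor of the synMuv B class, had 66.6 and 65.3 RPM in the adult IPs over inputs of 38.3 and 40.5 RPM, against 11.7 and 17 RPM in the L4 IPs over inputs of 35 and 35.7 RPM. The inputs hardly differed and the IPs did not overlap (log2 difference 2.97, adjusted p = 0.00022). nrde-3, a nuclear Argonaute of somatic cells, had 12.8 and 17.4 RPM in the adult IPs, against 1.30 and 0.752 RPM in the L4 IPs (log2 difference 2.82, adjusted p = 0.00305).

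Some genes had reads in the adult IPs and none in either L4 IP. The 5 largest called differences among genes enriched in adults and depleted at L4 were of this kind. Of the 176 protein-coding genes enriched in adults, depleted at L4 and called, 100 lay on X. T26E3.8 had 8.28 and 8.61 RPM in the adult IPs and 1.49 and 2.27 RPM in their inputs, against 1.6 and 1.57 RPM in the L4 inputs. With 3 counts over both L4 IPs as the limit (0.298 RPM), its ratio of IP to input was at least 23.9-fold higher in adults. eat-20, an X-linked gene for a transmembrane protein with EGF motifs needed in feeding, was at least 9.19-fold higher by the same limit. The limits were 5.89-fold for dhhc-10, 5.30-fold for fbxc-36 and 3.99-fold for T04D3.1. For fbxc-36 and T04D3.1 the 0.298 RPM was itself 1.66 and 1.19 times the mean L4 input, so their depletion at L4 is uncertain. Without the deeper L4 IP replicate 2, dhhc-10, fbxc-36 and T04D3.1 were no longer called (adjusted p = 0.0529, 0.0705 and 0.0848).

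Sperm genes were lower in adults. Major sperm proteins form the cytoskeleton of the crawling nematode sperm and signal to oocytes. All 31 of their genes were tested and all 31 were lower in adults, against 5.36% of all genes. Their log2 differences ran between -3.89 and -1.86 with a median of -2.36, which was -2.58 relative to the median of all genes. The call held under every scaling and tool for 29. Summed over the list, the share of counts in the IP was 0.235 and 0.356 times that in the input in adults, against 2.01 and 2.68 times at L4. On the TMM scale 17 of the 31 were enriched at L4. The count fell to 8 without the L4 IP replicate 2, where the shallow L4 IP stood alone, and to 21 without the adult IP replicate 1. msp genes are nearly identical in sequence, and the counts can have been split among them.

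Of 88 other genes listed for spermatogenesis 68 were tested, with a median of -1.37. In adults 28 (41.2%, beside 5.36% of all genes) were lower and 1 (1.47%, beside 14.4%) higher. The higher one, named after its value was seen, was the sperm cation channel gene spe-41 (1.19). Summed over the list, the share in the IP was 0.541 and 0.630 times that in the input in adults, against 1.93 and 2.17 times at L4. spch-1, a sperm chromatin protein, had 10.8 and 16.4 RPM in the adult IPs over inputs of 63.2 and 56.8 RPM, against 72.7 and 82.1 RPM in the L4 IPs over inputs of 9.88 and 11.6 RPM. IP and input thus moved in opposite directions between the stages: the adult inputs were about as high as the L4 IPs. Its log2 difference was -3.90 ± 0.47 (SE, adjusted p = 2.93e-05). nspd-6, of a nematode-specific peptide family, had 1.97 and 3.99 RPM in the adult IPs, against 75.3 and 88.5 RPM in the L4 IPs, with similar inputs at both stages (11.5 and 12.1 RPM in adults, 14.3 and 13.5 RPM at L4). nspd-1 and nspd-2, close copies of it, had log2 differences of -3.45 and -3.36 and share the uncertainty of the msp genes. ssp-19, a sperm protein with a major sperm protein domain, had 0.555 and 0.319 RPM in the adult IPs, against 16.9 and 6.88 RPM in the L4 IPs (log2 difference -3.91).

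Some genes were chosen after their values had been seen. fog-1 and fog-3, which direct germ cells to become sperm, had log2 differences of -2.29 (adjusted p = 0.00153) and -2.37 (adjusted p = 0.0297). fog-1 stayed enriched in adults at 11.2 and 13.8 RPM over 5.16 and 5.5 RPM, against 40.2 and 48.9 RPM over 1.83 and 2.07 RPM at L4. cpb-1, a CPEB translational regulator of spermatogenesis, and fer-1, a ferlin needed for sperm membrane fusion, differed by -2.04 and -2.12. fem-3, which also directs germ cells to the sperm fate, was higher in adults (1.61, adjusted p = 0.00816).

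The 10 genes with the lowest differences were spch-1, ssp-19, nspd-1, nspd-2 and nspd-6 above, and inx-8, C48E7.7, E03H12.5, ssp-9 (WBGene00006040) and F26B1.8. Of the 10, 6 lay on IV and the others on an autosome too. inx-8, a gap junction innexin of the somatic gonad that couples it to germ cells, had 1.01 and 0.957 RPM in the adult IPs, against 45.4 and 38.6 RPM in the L4 IPs, with 0.707 and 1.43 RPM in the adult inputs and 1.25 and 1.14 RPM in the L4 inputs. Its IP signal was 35.1 times the input at L4 and 0.921 times the input in adults (log2 difference -4.06 ± 0.58, SE, adjusted p = 0.000117). F26B1.8 had 1.16 and 2.23 RPM in the adult IPs, against 77.9 and 102 RPM in the L4 IPs (log2 difference -3.28). C48E7.7 had 1.26 and 1.75 RPM in the adult IPs over inputs of 2.76 and 3.44 RPM, against 67.5 and 144 RPM in the L4 IPs over inputs of 9.11 and 10.1 RPM (log2 difference -3.53). For both genes the IPs of the stages lay far apart, and the inputs differed less.

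**Figure D4:**
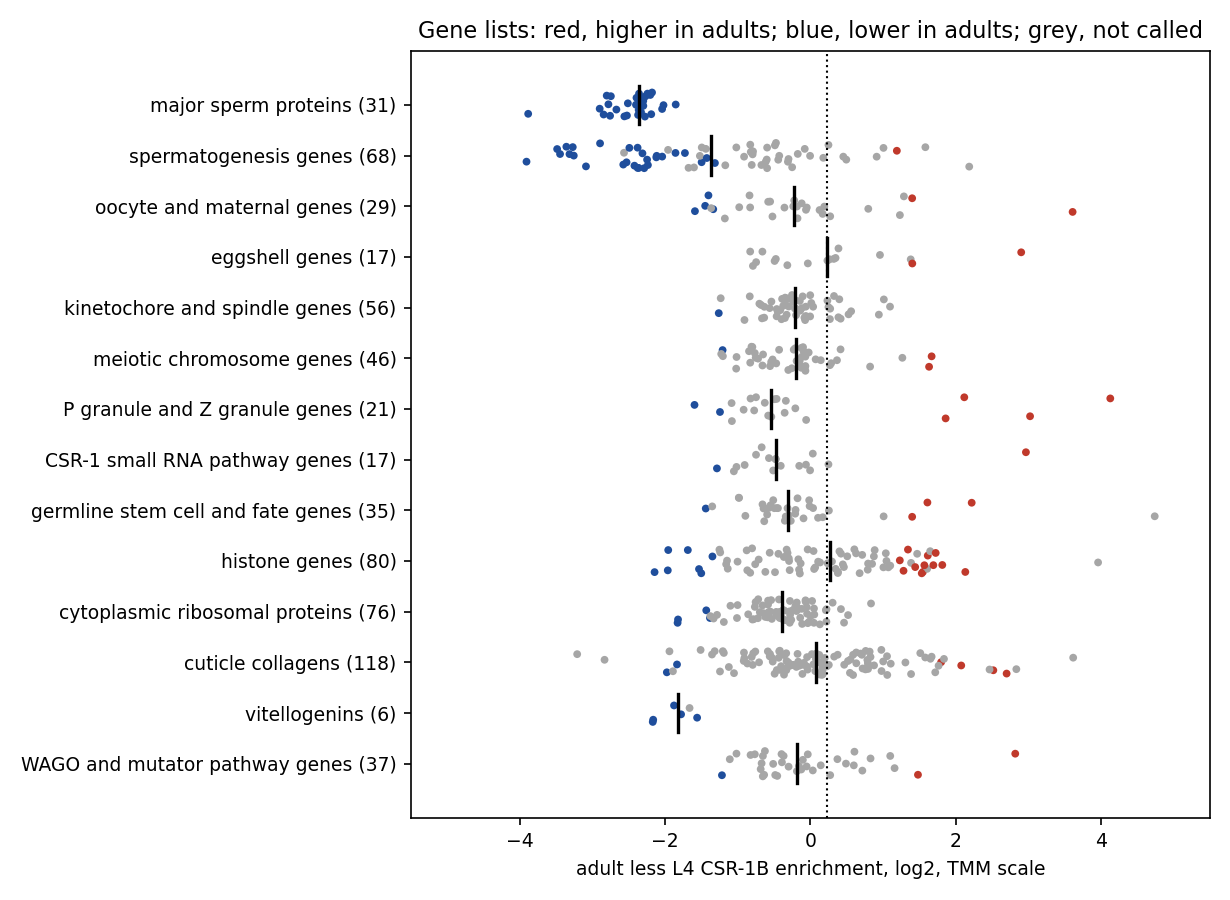
Adult less L4 CSR-1B enrichment of the tested members of each gene list (number in brackets), log2 on the TMM scale; bars are list medians, the dotted line is the median of all genes, and 1 member lies outside the axis. The major sperm protein genes are all blue, between -3.89 and -1.86, and the red points of the P granule list are the MEG genes.

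Genes of chromosome segregation stayed enriched at both stages. Of 56 kinetochore and spindle genes 54 were enriched in adults and 54 at L4. By the test of the difference 1 (cls-2) was lower (1.79%, beside 5.36% of all genes) and 0 were higher. Their summed share in the IP was 5.72 and 5.93 times that in the input in adults, against 13.9 and 12.8 times at L4. cls-2, a CLASP protein that regulates microtubules in the spindle, had 2271 and 2452 RPM in the adult IPs over inputs of 438 and 430 RPM, against 4387 and 5148 RPM in the L4 IPs over inputs of 161 and 171 RPM. Each IP was far above its input, by 5.44 times in adults and 28.7 times at L4. Its log2 difference was -1.26 (adjusted p = 0.0367), and -0.59 without the L4 IP replicate 2. csr-1 itself stood at 1972 and 2175 RPM over 187 and 195 RPM in adults, against 2263 and 3234 RPM over 56.5 and 56.9 RPM at L4. Its difference was -1.05 on the TMM scale without passing the test (adjusted p = 0.103), and it was called with DESeq2 (-1.33). The 4 edited substitutions and the tag lie in this gene.

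Among oocyte and maternal genes, 2 of 29 (6.90%, beside 14.4% of all genes) were higher and 4 (13.8%, beside 5.36%) lower in adults, with a median of -0.22. Their summed share in the IP was 3.56 and 3.68 times that in the input in adults, against 9.94 and 11 times at L4. The lower ones included cey-3 and cey-2, Y-box proteins that bind maternal mRNA, and glp-1, the Notch receptor that keeps germline stem cells. cey-3 had 224 and 249 RPM over inputs of 35 and 40.5 RPM in adults, against 428 and 511 RPM over inputs of 11.2 and 11.6 RPM at L4 (log2 difference -1.59, adjusted p = 0.018). Without the L4 IP replicate 2 the differences of cey-3, cey-2 and glp-1 were -0.89, -0.51 and -0.83, less than 2-fold. moe-3 was called higher (3.61) with less than 2 RPM in every library. Of 17 genes of the eggshell, cpg-3 and egg-3 were higher (11.8%, beside 14.4% of all genes) and 0 were lower. cpg-3, a chondroitin proteoglycan of the eggshell, had 98.6 and 81.0 RPM in the adult IPs over inputs of 13.5 and 19.4 RPM, against 10.4 and 8.27 RPM in the L4 IPs over inputs of 5.65 and 6.06 RPM (log2 difference 2.90, adjusted p = 0.000268). egg-3, a pseudophosphatase of egg activation, was called on the TMM scale (1.4) but not with library sizes alone (0.56).

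Few meiotic and fate regulators were called, with 4.35% and 8.57% higher beside 14.4% of all genes, and 2.17% and 2.86% lower beside 5.36%. Of 46 meiotic chromosome genes, cosa-1 (1.67) and lab-1 (1.63), which act in crossover formation and on the long arms of bivalents, were higher, and the strand exchange gene rad-51 (-1.21) was lower. Of 35 germline stem cell and fate genes 3 were higher and 1 lower. They were the calpain tra-3 (2.22), the masculinizing gene fem-3 (1.61), the Nanos gene nos-2 (1.4) and the B-type cyclin cyb-3 (-1.44). With library sizes alone cosa-1, lab-1, fem-3 and nos-2 were not called, with differences of 0.81, 0.87, 0.81 and 0.57. rad-51 was not called with the replicate block (adjusted p = 0.0867).

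In the P granule and Z granule list 4 of 21 genes (19.05%, beside 14.4% of all genes) were higher, all MEG genes. The genes car-1 and pgl-1 (9.52%, beside 5.36%) were lower. The median of the list was -0.54. car-1, an LSm-domain protein of RNA granules, and pgl-1, a core P granule protein, were named after their values had been seen. car-1 had 523 and 571 RPM over inputs of 104 RPM in adults, against 1359 and 1765 RPM over inputs of 44.5 and 46 RPM at L4 (log2 difference -1.60). pgl-1 had 809 and 792 RPM over 149 and 147 RPM in adults, against 1268 and 1153 RPM over 38.6 and 44.6 RPM at L4 (log2 difference -1.25). Both stayed enriched in every IP. Of 17 genes of the CSR-1 pathway lin-15B was higher and morc-1 lower (5.88% each, beside 14.4% and 5.36% of all genes). morc-1, a GHKL ATPase that compacts chromatin, had 1300 and 1349 RPM over 228 and 224 RPM in adults, against 2443 and 3082 RPM over 84.2 and 92.5 RPM at L4 (log2 difference -1.29, adjusted p = 0.0402). It was -0.54, less than 2-fold, without the L4 IP replicate 2. Of 37 WAGO and mutator genes (5.41% higher, 2.70% lower) nrde-3 and eri-6 (1.48) were higher and the Argonaute gene ppw-2 (-1.22) was lower. eri-6, which overlaps another gene in 24% of its exon bases and is uncertain, was depleted in every IP and was not called with library sizes alone, and ppw-2 was not called with the block (adjusted p = 0.0506). wago-1 differed by -0.51 without passing the test (adjusted p = 0.454).

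Among the genes the study singled out, F44D12.6 was lower in adults, at 2.12 and 2.79 RPM in the adult IPs against 19.5 and 24 RPM in the L4 IPs (log2 difference -1.99, adjusted p = 0.00786). It was -1.10 without the L4 IP replicate 2 and no longer called. Y41C4A.7 (-1.37, adjusted p = 0.0689) and R05D7.2 (-0.71, adjusted p = 0.438) did not pass. alg-3 and alg-4, Argonaute genes of spermatogenesis, differed by 0.25 and -0.01, and rpl-32 by -0.28.

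Targets were also listed separately at each stage, as genes enriched 2-fold or more and called, with an IP level of 10 RPM or more and no enrichment in the FLAG control. These follow the study's thresholds with edgeR in place of DESeq2, which gave 4521 in adults and 3887 at L4. CSR-1B had 4207 targets in adults and 3599 at L4. At both stages 3330 genes were targets, 877 in adults alone and 269 at L4 alone. X-linked genes made up 99 of the adult targets (2.35%) and 5 of the L4 targets (0.139%). A minimum of 5 RPM gave 147 and 8, and of 20 RPM 53 and 4. Of the 877 targets in adults alone 95 (10.8%) were X-linked. The lists were made from the libraries that also give the stage difference, so these counts describe it and do not test it.

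**Figure D5:**
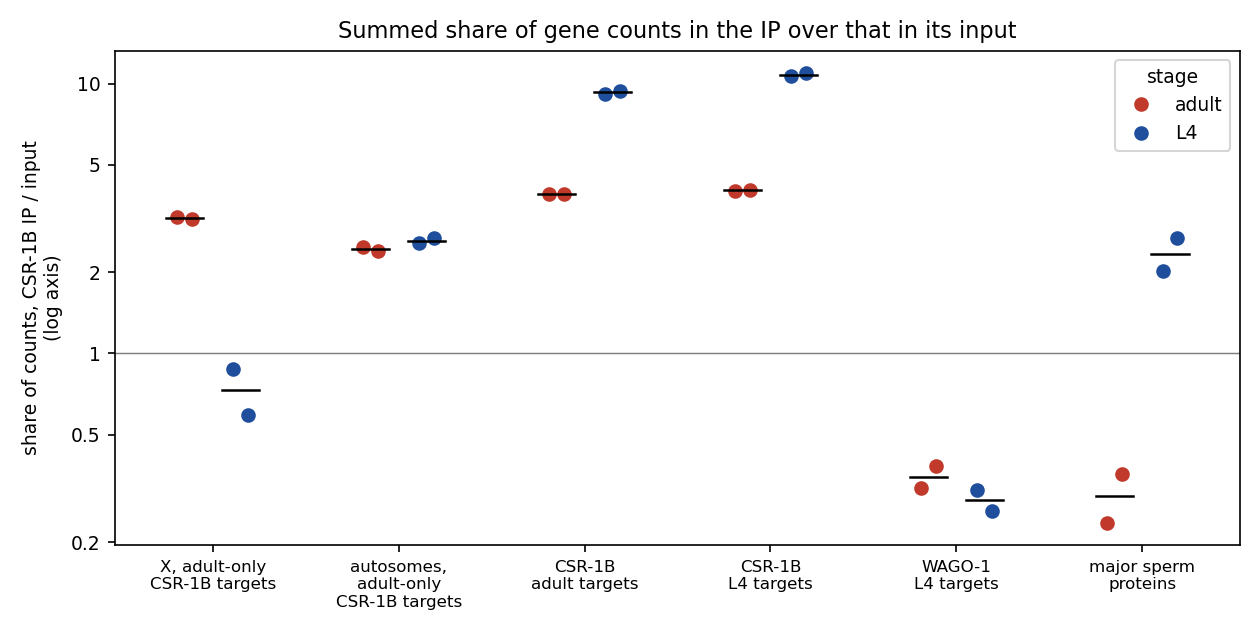
Share of gene counts summed over each group in the CSR-1B IP divided by that in the input of the same number (log axis), per replicate, in adults (red) and at L4 (blue); bars are means of 2. X-linked adult-only targets stand at 3.21 and 3.16 in adults and 0.875 and 0.590 at L4, autosomal ones hardly differ between stages, and the major sperm protein genes lie at 0.235 and 0.356 in adults and 2.01 and 2.68 at L4.

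The 95 X-linked targets found in adults alone changed in both fractions, and more in the IP. They took 0.442% and 0.432% of the counts in the adult IPs and 0.138% and 0.137% in the adult inputs. At L4 they took 0.0825% and 0.0576% in the IPs and 0.0943% and 0.0977% in the inputs. The ratio of IP to input was 3.21 and 3.16 in adults, against 0.875 and 0.590 at L4. For the 687 autosomal protein-coding targets found in adults alone it was 2.49 and 2.40 in adults, against 2.56 and 2.67 at L4.

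Genes bound by other Argonautes at L4 were compared through lists from their own IPs. These came from other lines: CSR-1A with an HA tag was pulled down with anti-HA, and WAGO-1 with a FLAG tag with anti-FLAG. Each list was filtered on the IP of its own antibody from untagged L4 animals. Of 2281 tested WAGO-1 targets 746 (32.7%, beside 14.4% of all genes) were higher and 36 lower in adults, with a median of 0.97. Summed over the list they remained depleted from the CSR-1B IP, with IP shares 0.316 and 0.381 times the input in adults, against 0.313 and 0.260 times at L4. Of 1784 tested CSR-1A targets 268 (15.0%, beside 5.36% of all genes) were lower and 134 (7.51%, beside 14.4%) higher in adults. Those that were not CSR-1B targets at L4 had 214 of 1204 (17.8%) lower and 131 (10.9%) higher, with a median of -0.26. The CSR-1B targets removed there were called from libraries that also give the stage difference, so this last count describes it and does not test it. CSR-1A was absent from all animals of the CSR-1B line.

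Ribosomal protein genes were called lower about as often as all genes, and 0 of 76 were called higher, beside 14.4% of all genes. Of 76 ribosomal protein genes 4 (5.26%, beside 5.36% of all genes) were lower, namely rps-28 (-1.83), rpl-25.2 (-1.82), rpl-11.1 (-1.43) and rpl-35 (-1.38). rpl-35 was not called with the replicate block (adjusted p = 0.0693). Of 80 histone genes 12 (15.0%, beside 14.4%) were higher and 7 (8.75%, beside 5.36%) lower. The variants htz-1 (H2A.Z, -1.96) and his-71 (H3.3, -2.15) were lower, and the repeated histone genes can share reads. Of 118 tested cuticle collagen genes 5 (4.24%) were higher and 2 (1.69%) lower. The 4 named collagens had less than 4 RPM in every CSR-1B library, and none kept its call under every scaling and tool. col-138 and col-107 were not called with the replicate block (adjusted p = 0.0592 and 0.0678).

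Of the 6 vitellogenin genes, which encode yolk proteins, 5 (83.3%, beside 5.36% of all genes) were lower. vit-6 had 115 and 153 RPM in the adult IPs over inputs of 639 and 750 RPM, against 90.9 and 18.8 RPM in the L4 IPs over inputs of 27.4 and 16.2 RPM (log2 difference -2.17, and -1.28 without the L4 IP replicate 1). vit-3 was not called (-1.67, adjusted p = 0.0579) except with the replicate block (adjusted p = 0.00442). The median log2 difference of the 6 genes, adults less L4, was 1.93 in the IPs and 3.69 in the inputs. The L4 IPs of vit-6 lay far apart, and the median vitellogenin enrichment in the FLAG control of untagged L4 animals was 0.92 on the log2 scale. Its part in the difference was not tested.

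Non-coding classes differed in how many of their genes were called, beside 14.4% higher and 5.36% lower of all genes. Of 70 tested lincRNA genes 31 (44.3%) were higher and 2 lower, with a median of 1.36. Of 867 pseudogenes 203 (23.4%) were higher and 30 lower, and of 117 snRNA genes 22 (18.8%) were higher and 1 lower. The shares were under that of all genes for ncRNA genes (87 of 826 higher, 43 lower), snoRNA genes (14 of 178 higher, 2 lower) and tRNA genes (22 of 564 higher, 24 lower). The same higher call under all scalings and tools was made for 26 lincRNA genes, 79 pseudogenes and 6 snRNA genes. In CSR-1A+B the snRNA genes went the other way. There 5 of 115 (4.35%, beside 11.9% of all genes) were higher and 16 (13.9%, beside 9.54%) lower. linc-16 had 414 and 415 RPM in the adult IPs over 127 and 152 RPM in the inputs, against 92.2 and 56.7 RPM over 120 and 118 RPM at L4 (log2 difference 3.5, adjusted p = 2.62e-05). Y9D1A.1, a lincRNA gene on II, had 106 and 114 RPM in the adult IPs, against 13 and 8.38 RPM in the L4 IPs (log2 difference 4.18). The X-linked pseudogene WBGene00219279 had 32.2 and 31.5 RPM in the adult IPs, against 6.49 and 0.860 RPM in the L4 IPs (log2 difference 5.53). The named snoRNA F47E1.19 and the snRNA C05G6.4 lie wholly inside other genes, so their reads cannot be assigned to them.

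The CSR-1A+B line gave the stage difference in other animals. There 1762 of 15111 tested genes (11.7%) were higher in adults and 1406 (9.30%) lower. Among 14668 genes tested in both lines, 1088 were called higher in both, 50.4% of the 2160 of CSR-1B and 62.3% of the 1746 of CSR-1A+B. For lower calls 471 were shared, 58.7% of 802 and 33.7% of 1399. Of the CSR-1B calls 92.9% of the higher and 94.1% of the lower had the same sign in CSR-1A+B, while 6 of the higher and 1 of the lower were called the other way.

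X-linked and sperm genes had the same direction in CSR-1A+B. Among the gene lists, the medians of the histone and eggshell genes differed in sign. Among the non-coding classes, those of the snRNA, tRNA and snoRNA genes did. On X 358 of 1357 protein-coding genes (26.4%) were higher and 19 lower, with a median of 0.83, and 161 were enriched in adults against 25 at L4. The 95 X-linked genes that were CSR-1B targets in adults alone included 72 that were higher in CSR-1A+B. vps-52 had 34.7 and 29.9 RPM in the adult CSR-1A+B IPs, against 4.82 and 3.35 RPM in the L4 IPs (log2 difference 3.43, adjusted p = 0.000186). All 31 major sperm protein genes were lower, with a median of -2.84. spch-1 had 4.17 and 5.65 RPM in the adult CSR-1A+B IPs, against 92.2 and 164 RPM in the L4 IPs (log2 difference -4.27). Of 80 histone genes 26 (32.5%, beside 9.54% of all genes tested in both lines) were lower in CSR-1A+B. Their median was -0.77 there, against 0.27 in CSR-1B, which was 0.04 above the median of all genes. The median of the eggshell genes was -0.48 in CSR-1A+B, against 0.23 in CSR-1B, which was 0.01 above the median of all genes. In CSR-1A+B 1 (5.88%, beside 11.9%) was higher and 3 (17.65%, beside 9.54%) lower. No eggshell gene was called in the direct test between the lines. The vitellogenin median was -1.32 in CSR-1A+B without a call for any of the 6. The snRNA median was -0.10 in CSR-1A+B, against 0.56 in CSR-1B. For tRNA genes the medians were 0.28 and -0.35, and for snoRNA genes -0.02 and 0.02. Of 68 lincRNA genes 13 (19.1%, beside 11.9%) were higher and 6 (8.82%, beside 9.54%) lower in CSR-1A+B. Of 814 pseudogenes 149 (18.3%) were higher and 31 (3.81%) lower there.

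Tested directly, the stage difference of the lines themselves differed for few genes. Of 15733 genes 94 (0.597%) had a higher difference in CSR-1B than in CSR-1A+B and 5 (0.0318%) a lower one. Pairing same-numbered IP and input as a replicate block gave 147 and 31. Of the 94, 60 were CSR-1A targets at L4 that were not CSR-1B targets, a list with 1204 of the 15085 genes tested in CSR-1B. On it 131 genes were higher and 214 lower in CSR-1B, against 23 higher and 284 lower in CSR-1A+B. The CSR-1B targets were left off by means of CSR-1B L4 libraries that enter the difference. The count of 60 therefore describes the difference and does not test it. X-linked protein-coding genes were 21 of the 94, and histone genes 8. The count was 2177 without the CSR-1B L4 IP replicate 2 and 7 without the CSR-1A+B L4 input replicate 1, so it moved with single libraries.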

How the data were processed

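Small RNAs of 18 to 30 nt were sequenced from whole animals, about 100000 per sample. Per the submitters' processing notes and the study's methods, the authors aligned reads with Bowtie2 2.2.2 and counted them per gene with featureCounts (Subread 1.5.1), splitting multi-overlapping reads by fraction. The deposited values are therefore estimated counts per gene, which were rounded to whole numbers for tests. No strand setting was stated, so overlapping and antisense genes cannot be separated, and a named gene with over 20% of its exon bases inside another gene is uncertain. RPM is the count over all reads mapped to the genome, with a pseudocount of 0.1 RPM in per-replicate log2 ratios. Of the series' files 50 small RNA count files were read and 10 files were left out. Those left out were the mRNA files and the small RNA file of the wild-type L4 HA input replicate 2. That library belongs to the HA control used for the CSR-1A target list, which was made without it.

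The main test was edgeR 4.0.16 (quasi-likelihood, TMM, filterByExpr, R 4.3.3) on the 8 CSR-1B libraries with 4 groups and 4 residual degrees of freedom, contrast (adult IP less adult input) less (L4 IP less L4 input). P-values were adjusted by Benjamini-Hochberg over all genes tested, and calls needed a 2-fold difference and an adjusted p no higher than 0.05. The same fit was made for CSR-1A+B, and both lines were fitted together for their difference. DESeq2 1.42.0, other scalings and filters, a replicate block, thinning and leaving out each library were alternatives. By the methods the input was a part of the lysate used for the IP. That an IP and an input of one number shared a lysate is not stated there. The correlations of the deviations of same-numbered IP and input were 0.026 and 0.052 in the CSR-1B line (adults and L4). In CSR-1A+B they were 0.046 and 0.0089. Replicate pairs differed beyond counting noise, with chi-square values per gene of 9.46, 15.6, 7.35 and 18.9 in the adult IPs, adult inputs, L4 IPs and L4 inputs.

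Named genes were the 10 protein-coding genes of each direction with the largest called differences among those averaging 10 RPM or more in the IP of a stage whose replicates did not overlap between stages. To these were added all members of lists of up to 6 or the 4 most changed called members of longer lists, the genes the study names, the 5 most changed of each direction enriched at one stage and depleted at the other, and 3 per non-coding class. The members, lists and groupings were chosen with earlier results of these data known. The microRNA lists matched no gene in the files. Guides and oligos come from the study's supplement and were placed on WBcel235; gene positions are those of the count files.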

Additional observations from a re-analysis of the deposited data

Results flagged for a closer look

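Of the 99 named genes 5 had a stage difference that differed between the CSR-1B and CSR-1A+B lines by the edgeR test of that difference. For gck-4 the difference was 4.36 in CSR-1B and 0.75 in CSR-1A+B, 3.64 apart (adjusted p = 0.00875). The CSR-1A+B libraries held 24.1 and 27.7 RPM in the adult IPs against 11.5 and 13.1 RPM in the L4 IPs, where the CSR-1B L4 IPs held a count of 0 and 1.29 RPM. For his-50 it was 2.13 in CSR-1B and -0.43 in CSR-1A+B, 2.60 apart (adjusted p = 0.0398). For the X-linked pseudogene WBGene00018690 it was 3.94 and 1.45, 2.55 apart (adjusted p = 0.0232). For linc-16 it was 3.5 and 1.13, 2.41 apart (adjusted p = 0.0217). For T26E3.8 the fitted values were 7.36 apart (adjusted p = 0.0356); both CSR-1B L4 IPs had no count, so this value depends on the prior count and is no measure of size. The CSR-1A+B L4 IPs held 1.34 and 1.22 RPM of it.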

How the results depend on the processing

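The 2177 genes higher in adults became 1134 with library sizes alone and 501 with libraries thinned to the shallowest. The 808 lower became 1568 with DESeq2, 2107 with DESeq2 size factors, 4656 with library sizes alone, 1367 with all small RNA libraries in one fit and 3197 without a filter. The replicate block gave 1926 higher and 582 lower. Without one library the counts ran from 998 to 3363 higher and from 161 to 2182 lower. The higher count moved by over 1.5 times without L4 IP replicate 2 (3363), adult IP replicate 1 (998), adult IP replicate 2 (1211), adult input replicate 1 (1179) or adult input replicate 2 (1132). The lower count did so without each of the 8 libraries: L4 IP replicates 1 and 2 (2182 and 258), L4 input replicates 1 and 2 (1311 and 1479), adult IP replicates 1 and 2 (161 and 339), adult input replicates 1 and 2 (319 and 339). X-linked genes higher in adults ran from 329 to 642 and major sperm protein genes lower from 8 to 31.

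In CSR-1A+B, DESeq2 gave 581 higher and 2471 lower and library sizes alone 377 and 4462, and single libraries left out gave 292 to 1853 and 947 to 3198. Moves of over 1.5 times came from L4 input replicate 1 (292 and 3198), L4 input replicate 2 (313 and 3183) and, for the higher count, adult input replicate 2 (963). The difference between lines, 94 higher and 5 lower, became 210 and 8 with DESeq2, 147 and 31 with the replicate block and 8 lower with library sizes alone, and single libraries left out gave 7 to 2177 and 0 to 46.

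Of 91 named calls, 90 held with DESeq2 size factors, 78 with library sizes alone, 81 with DESeq2, 85 with the replicate block, and 48 in thinned libraries, where 22 weakened, 1 turned and the others were not tested. Without 1 library 54 to 90 held, the fewest without adult IP replicate 1 (54), adult input replicate 2 (61), adult IP replicate 2 (64), adult input replicate 1 (65) and L4 IP replicate 2 (65). Signs turned without L4 IP replicate 2 for msp-74 (range -4.17 to 5.03 over single libraries left out) and alg-4 (-0.40 to 1.99), and for meg-1 (-2.09) in thinned libraries. The cause was not tested. The calls that the block changed stand beside their genes in the report, and it changed no other named call. CSR-1B targets stayed within 1.5 times of their counts under every minimum, denominator and tool tried.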
